A study of Arabidopsis thaliana with 6 samples.

Results

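The SWEET sugar transporters of Arabidopsis thaliana were followed in root tips that had been given one of 2 signalling peptides. Members were the probe sets that the array's annotation gives to one gene alone, with a SWEET symbol followed by digits, and whose mean signal over the 6 arrays was at least 92. SWEET3, SWEET11, SWEET13, SWEET16 and SWEET17 met this rule, which makes 5 probe sets of the 22746 that are no control, and 5 of the 14 that name a SWEET gene in this way. Each stands for 1 gene, of 13355 genes that have a probe set of their own, and by the suffix of its ID each is of the plain kind, designed against a single transcript. The other 9 had lower means, and the limit lay between SWEET13 at 111 just inside and SWEET2 at 83.3 just outside. Members were thus chosen by their signal, and their presence above the limit is a description and not a finding. The family was also picked with its differences between the peptides known.

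The roots were wild type, of the accession Col-0, and came from 7-day-old seedlings grown in shaken liquid medium under continuous light. Both groups carried the same genotype and differed in the chemically synthesized peptide, CLE10 or CLE25, each present at 1000 nM for 12 h, after which tips of 5 mm were taken. CLE peptides are short signals that plant cells release and perceive through receptor kinases at the surface. Each group holds 3 arrays, and the study asked which genes underlie the unlike effects of the peptides on roots. No array of untreated roots was analysed here, so the values compare the peptides with each other and show no response to either. All arrays had a trimmed mean signal of 500, and their medians lay between 157 and 172. Of the 22746 probe sets, 8730 had no gene name in the annotation used, so a gene without a named probe set may still be on the array. Of the root tissue markers listed, 5 of 18 could be matched by name to a probe set of their own, and all 5 were bright enough to be tested. The arrays correlated with each other at 0.977 to 0.988 over the tested probe sets, and CLE25 replicate 3 had the lowest mean correlation with the others (0.981).

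SWEET proteins are membrane carriers that let sugars pass down their concentration gradient, in either direction and without the proton coupling that drives other sugar carriers. Members at the plasma membrane release sucrose or glucose from cells, and members at the tonoplast pass sugars between the vacuole and the cytosol. A growing root tip is a sink that lives on sucrose delivered by the phloem, and such carriers belong to the routes by which that sugar leaves and enters cells.

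In these root tips SWEET11 and SWEET3 had lower mean signals with CLE25 than with CLE10, and the ratio of the means was 1.68 for SWEET11 and 1.39 for SWEET3, while SWEET13, SWEET16 and SWEET17 had nearly equal means. None of the 5 members passed an adjusted p of 0.05 in limma, a linear model with variances moderated across all probe sets, as 0% of the 13648 tested probe sets did. The CLE25 and CLE10 arrays overlapped in all 5 members, and over all tested probe sets the groups were apart in 9.18%. At an unadjusted limma p under 0.05 there were 2 members, SWEET11 and SWEET3, both lower with CLE25. Over all tested probe sets that share was 4.21% in either direction and 2.3% for lower with CLE25, and nothing is read from the members' count because the family was picked with it known. Over the members the median log2 fold change was -0.048, with 3 lower and 2 higher, and over all tested probe sets it was -0.0024, with 50.6% lower. Each fold change below is the log2 value of CLE25 minus that of CLE10, given with its standard error. A pseudocount of 6.03 was added to all signals first, and this makes differences of dim probe sets look smaller.

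**Figure D1:**
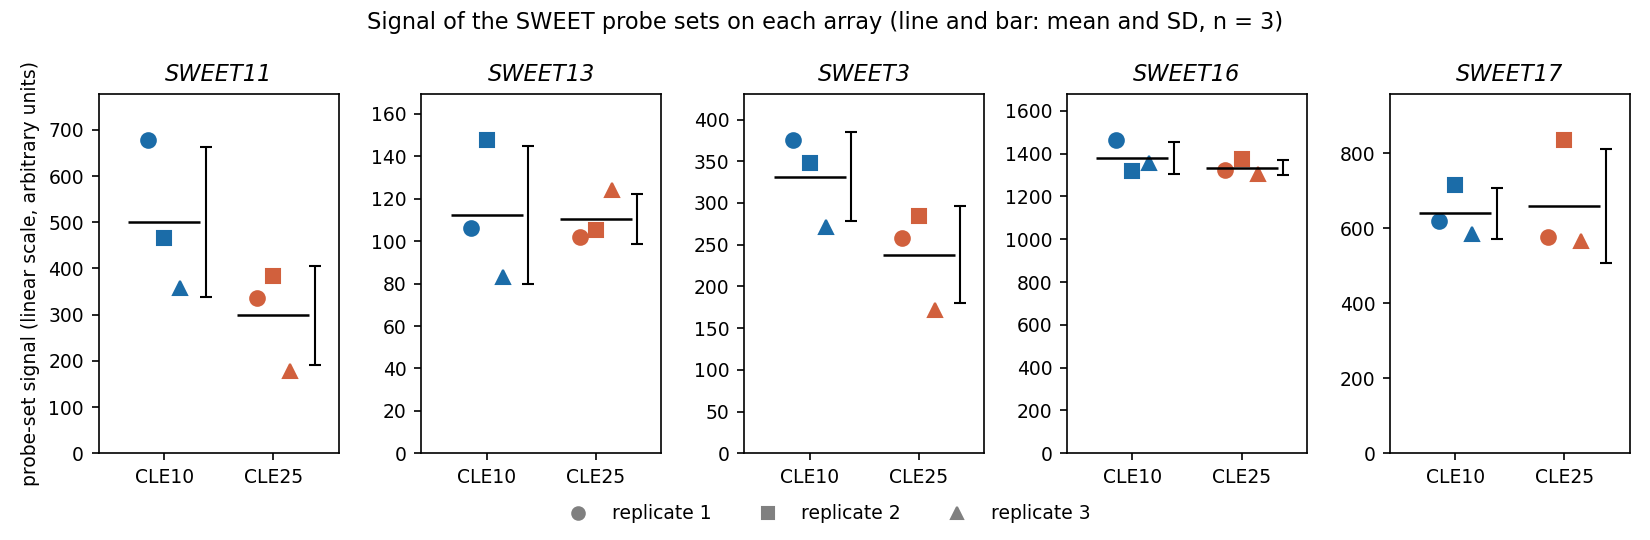
Probe-set signal on a linear scale from 0 for each SWEET member (1 panel each, with its own axis), for CLE10 and CLE25 arrays; marker shape gives the replicate number, the line the mean and the bar the SD (n = 3). In SWEET11 and SWEET3, 2 of the 3 CLE25 arrays lie below every CLE10 array and CLE25 replicate 2 lies among them, while in SWEET16 all 6 arrays lie between 1303 and 1462.

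Of the carriers at the plasma membrane, SWEET11 (AT3G48740) exports sucrose, and in leaves it passes sucrose from phloem parenchyma cells towards the sieve tubes. Its signals with CLE10 were 677, 466 and 359 in replicates 1, 2 and 3. With CLE25 they were 335, 383 and 178. Thus 2 of the CLE25 arrays lay below all CLE10 arrays, and CLE25 replicate 2 lay above CLE10 replicate 3, so the groups overlapped. The means were 501 ± 162 (SD, n = 3) and 299 ± 107, and on the log2 scale the difference was -0.76 ± 0.27 (adjusted p = 0.999 in limma). The 95% confidence interval ran from -1.35 to -0.16, which spans values 1.12 to 2.56 times lower with CLE25 on the fitted scale, where the pseudocount is included. Of the 13648 tested probe sets, 18 had a lower log2 fold change than SWEET11. Nothing is read from this rank, because the family was picked with its differences between the peptides known.

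SWEET11 also varied much between arrays of one peptide. The pooled SD of its log2 signal within groups was 0.52, larger than in 98.9% of the tested probe sets, whose median was 0.16. The highest array was CLE10 replicate 1 and the lowest was CLE25 replicate 3. Without CLE25 replicate 3 the log2 fold change was -0.43 ± 0.22, and without CLE10 replicate 1 it was -0.52 ± 0.28.

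Few other readouts were at hand for the tissues that SWEET11 is known from. Of 21 phloem markers 1 could be matched by name to a probe set of its own, OPS, a membrane protein needed for phloem differentiation, and it was too dim to be tested. Its signals were 89.5, 110 and 71.1 with CLE10 and 54.2, 117 and 83.7 with CLE25, so its groups overlapped. In bulk root tips, fewer cells of a type and less RNA per cell cannot be told apart. The green tissue marker LHCB4.1, a light-harvesting protein and the one of 7 such markers that could be matched in this way, was at 123, 91.9 and 148 with CLE10. With CLE25 it was at 129, 105 and 40.2, lowest on CLE25 replicate 3, the array where SWEET11 was lowest too. Its groups overlapped, with a log2 fold change of -0.49 ± 0.35. The 3' to 5' log2 difference of the actin control, used as a measure of RNA integrity, was 3.50 on CLE25 replicate 3, within the range of 3.41 to 4.27 over all arrays. The actin difference was thus large on every array. By the suffixes of their IDs, its 3' and 5' probe sets are of unlike kinds (_f and _r), so its size cannot be read as RNA integrity alone. For the GAPDH control, whose 3' and 5' probe sets share the suffix _s, it was far smaller. It was 0.55 on CLE25 replicate 3 and between 0.47 and 0.76 over all arrays.

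The tested markers of root tissues gave values on CLE25 replicate 3 that were in part outside those of the other arrays. That array was looked at because SWEET11 was lowest on it. How often it was highest or lowest over all tested probe sets was not counted, so these values show no shift in tissue makeup. EXPA7 and EXPA18, expansins of root hair cells, were highest there, at 2596 and 4049, against 1325 to 1799 and 2615 to 3204 on the other arrays. BBM, a transcription factor of the meristem, was lowest there, at 77.3, against 95.9 to 137. The transcription factor JKD and the endodermal receptor kinase GSO1 lay on that array within the range of the others. So did the xylem marker IRX10, a xylan synthase subunit and the one of 11 xylem markers matched by name. On CLE10 replicate 1, where SWEET11 was highest, GSO1 was highest, at 660, and IRX10 lowest, at 260. The CLE10 and CLE25 arrays overlapped in all of these 6 genes, whose log2 fold changes were 0.24 ± 0.20 for EXPA7, 0.13 ± 0.15 for EXPA18, -0.25 ± 0.23 for BBM, 0.032 ± 0.28 for JKD, -0.025 ± 0.12 for GSO1 and 0.088 ± 0.13 for IRX10. The part of the tissue makeup of the samples and of RNA integrity in the SWEET11 and SWEET3 values was not tested.

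SWEET13 (AT5G50800) is likewise a plasma membrane sucrose carrier, and it is known to rise in leaves that lack SWEET11 and its close relative SWEET12. Its probe set was the closest to the signal limit, at 106, 148 and 83.3 with CLE10 and 102, 105 and 124 with CLE25. All 3 CLE25 arrays lay within the range of the CLE10 arrays. The means were 112 ± 32.6 (SD, n = 3) and 110 ± 11.9, with a log2 fold change of 0.0083 ± 0.22 and a 95% interval from -0.48 to 0.50. Its sign turned with a larger pseudocount, with quantile normalization, and on leaving out CLE10 replicate 1, CLE10 replicate 3 or CLE25 replicate 3. In the gene order of the reference, SWEET10 is its neighbour, a further sucrose carrier, whose mean signal was 34.8, under the limit.

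SWEET3 (AT5G53190) belongs to the same clade of the family as SWEET1 and SWEET2. It had signals of 375, 348 and 272 with CLE10. With CLE25 it had 258, 284 and 172. As in SWEET11, CLE25 replicates 1 and 3 lay below all CLE10 arrays, and CLE25 replicate 2 lay above CLE10 replicate 3. The means were 332 ± 53.6 (SD, n = 3) and 238 ± 58.5, and on the log2 scale the difference was -0.49 ± 0.19 (adjusted p = 0.999 in limma). The 95% interval from -0.91 to -0.061 spans values 1.04 to 1.88 times lower with CLE25 on the fitted scale. Lower log2 fold changes than that of SWEET3 were found for 113 of the tested probe sets, or 0.828%, and nothing is read from this rank either. Without CLE25 replicate 3 the log2 fold change was -0.27 ± 0.17.

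SWEET11 and SWEET3 placed the 6 arrays in the same order, from CLE10 replicate 1 at the top, through CLE10 replicate 2, CLE25 replicate 2, CLE10 replicate 3 and CLE25 replicate 1, down to CLE25 replicate 3. Apart from SWEET11 itself, 43 tested probe sets (0.315%) had this order, and SWEET3 was one of them. The log2 signal of SWEET11 spanned 1.89 over the arrays and that of SWEET3 spanned 1.10. All points share the same 6 arrays, including the 2 at the ends, so the shared order is a description.

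**Figure D2:**
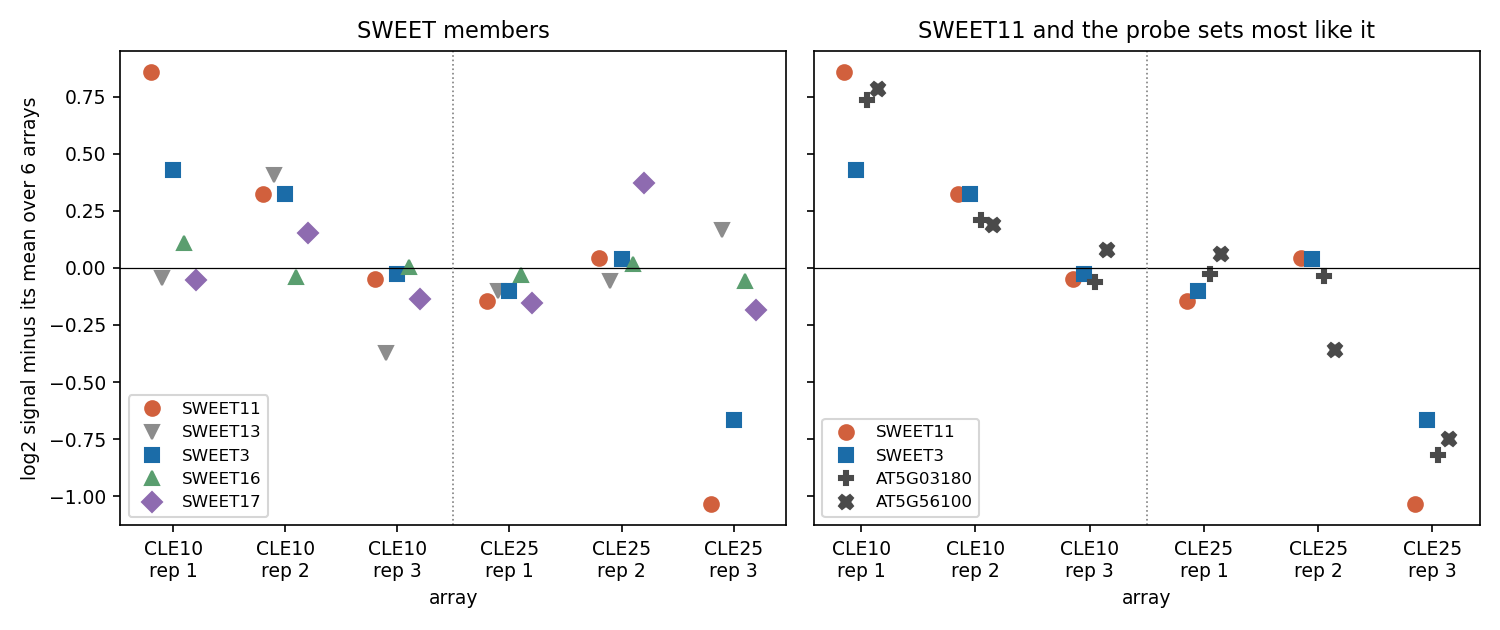
Log2 signal minus its mean over the 6 arrays (y axis) on each array (x axis), for the 5 SWEET members (left) and for SWEET11 with the 3 one-gene probe sets most like it (right); points of one array are set side by side. SWEET11 runs from 0.86 on CLE10 replicate 1 to -1.03 on CLE25 replicate 3 and SWEET3 from 0.43 to -0.67, while SWEET16 stays within 0.11 of its mean.

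Likeness between probe sets was measured as the root mean square difference of such mean-centred log2 signals over the 6 arrays, among 7449 other tested one-gene probe sets. The closest to SWEET11 was AT5G03180, at 0.13, with signals of 128 ± 38.8 (SD, n = 3) with CLE10 and 83.2 ± 25.2 with CLE25. SWEET3 came second, at 0.23, and AT5G56100 followed, also at 0.23, with 136 ± 39.4 and 81.7 ± 24.6. Seen from SWEET3, whose differences between arrays were smaller, the closest were AT3G50900 at 0.10, AT1G68940 at 0.11 and AT5G23850 at 0.13. SWEET11 ranked 341 in that list. From SWEET11, the members SWEET16, SWEET17 and SWEET13 stood at ranks 1993, 2156 and 5364. The measure is not scaled, so a nearly flat probe set such as SWEET16, at 0.53, can rank ahead of many that vary. These 3 ranks thus show no likeness in pattern.

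Of the tonoplast carriers, SWEET16 (AT3G16690) carries glucose, fructose and sucrose across the vacuolar membrane. Its signals were 1462, 1321 and 1358 with CLE10 and 1326, 1373 and 1303 with CLE25, so the groups overlapped within a narrow range. The means were 1380 ± 73.1 (SD, n = 3) and 1334 ± 35.6, with a log2 fold change of -0.048 ± 0.096. The 95% interval of the CLE25 to CLE10 ratio ran from 0.836 to 1.12. Its pooled SD within groups was 0.060 on the log2 scale, and 3.3% of the tested probe sets had a smaller one.

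SWEET17 (AT4G15920) is a fructose carrier of the vacuole that is known to be active in roots. It had signals of 619, 716 and 585 with CLE10 and 577, 834 and 566 with CLE25. The highest array and the lowest arrays were all of CLE25, and replicate 2 was the highest in both groups. The means were 640 ± 68.2 (SD, n = 3) and 659 ± 152, with a log2 fold change of 0.023 ± 0.16 and a 95% interval of the ratio from 0.803 to 1.29. The sign turned on leaving out CLE25 replicate 2, to -0.16 ± 0.13, or CLE10 replicate 3, to -0.039 ± 0.18.

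The genes next to the tonoplast members could be compared in part. AT3G16700, beside SWEET16, had a log2 fold change of -0.13 ± 0.18. DI21 and AT4G15930, on either side of SWEET17, had -0.13 ± 0.11 and 0.075 ± 0.0998. The neighbours of SWEET11 could not be matched by name to a probe set of their own.

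**Figure D3:**
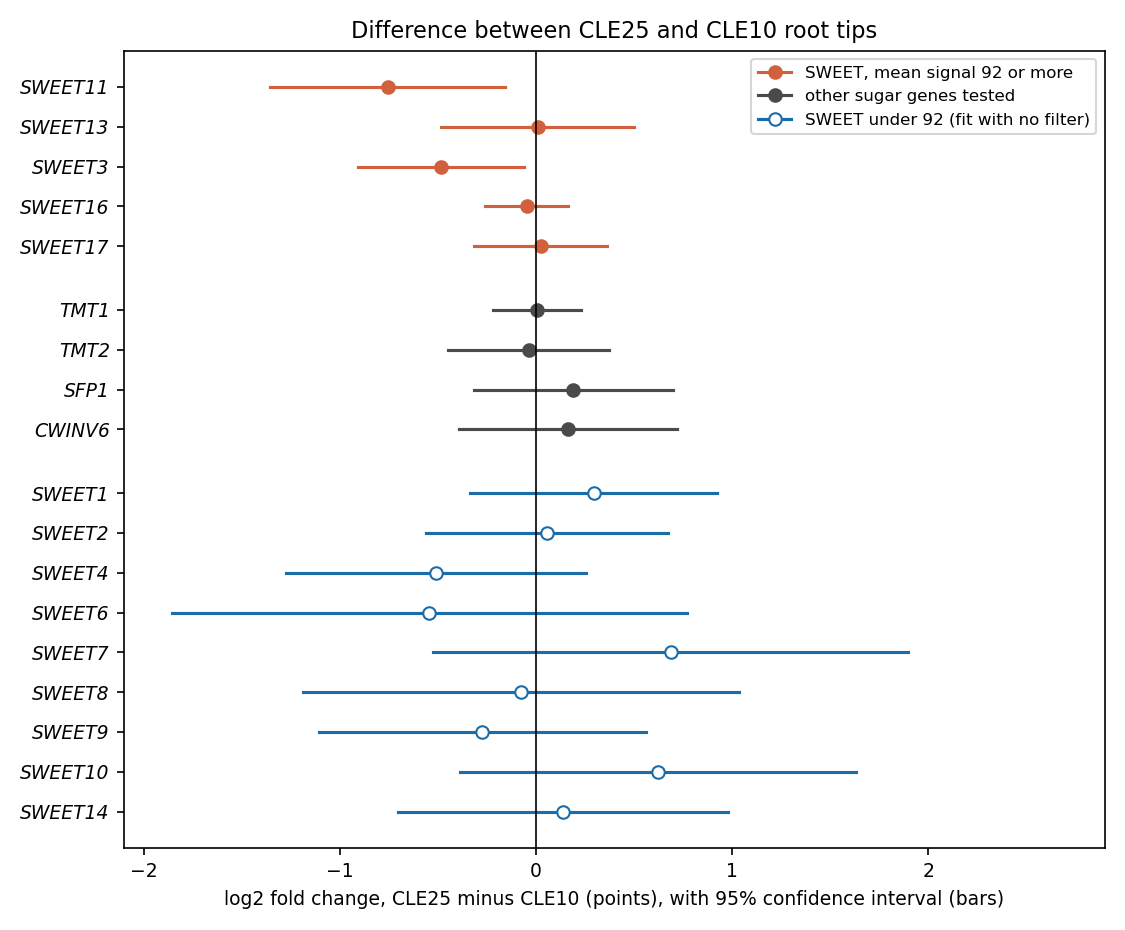
Log2 fold change of CLE25 minus CLE10 (points) with its 95% confidence interval in limma (bars), for the 5 SWEET members, the 4 other sugar genes tested and the 9 SWEET genes under the signal limit, the last from the fit with no filter. The intervals of SWEET11 and SWEET3 lie below 0, the others include 0, and the dim genes have the wider intervals. They are not adjusted for the number of probe sets, and the family was picked with its differences known.

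The 9 other SWEET genes had mean signals between 16.3 and 83.3. Their mean was higher with CLE25 in 5 and lower in 4, and the groups overlapped in 8. Over all 22746 probe sets, with no filter, the groups were apart in 9.06%. SWEET2, a tonoplast carrier known for limiting sugar loss from roots, was at 80.8 ± 11.2 (SD, n = 3) with CLE10 and 85.8 ± 23.8 with CLE25. SWEET1, a glucose carrier of the plasma membrane, was at 67.4 ± 16.9 and 83.2 ± 15.3. SWEET4 was the one whose groups did not overlap, at 32.7 ± 5.58 and 21.3 ± 4.61, a log2 fold change of -0.51 ± 0.34 in the fit with no filter. SWEET6, SWEET7, SWEET8, SWEET9, SWEET10 and SWEET14 had means of 38.2 or less over all arrays. In that fit their log2 fold changes ran from -0.54 ± 0.59 for SWEET6 to 0.69 ± 0.54 for SWEET7. SWEETIE shares only the start of the symbol and was not counted.

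Other genes of sugar transport and sucrose breakdown gave few values. Of 56 such genes listed, 50 were matched in the gene table, 6 of these could be matched by name to a probe set of their own, and 4 were bright enough to be tested, and 0 passed an adjusted p of 0.05 in limma in either direction (0 also at an unadjusted p under 0.05). Their median log2 fold change was 0.083, with 3 higher and 1 lower with CLE25. TMT1, a proton-coupled carrier that loads sugars into the vacuole, had means of 2572 ± 102 (SD, n = 3) and 2587 ± 264 for CLE10 and CLE25, and a log2 fold change of 0.0043 ± 0.10. Its relative TMT2 was at 280 ± 26.2 and 278 ± 72.5, a log2 fold change of -0.037 ± 0.19. SFP1, of the sugar porter family, had 0.19 ± 0.23. CWINV6 had 0.16 ± 0.25, and it was counted here by its cell wall invertase name alone, which does not show that it cleaves sucrose. The proton-coupled sucrose carriers of the SUC family and the hexose carriers of the STP family had 0 members that could be matched by name and tested.

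**Figure D4:**
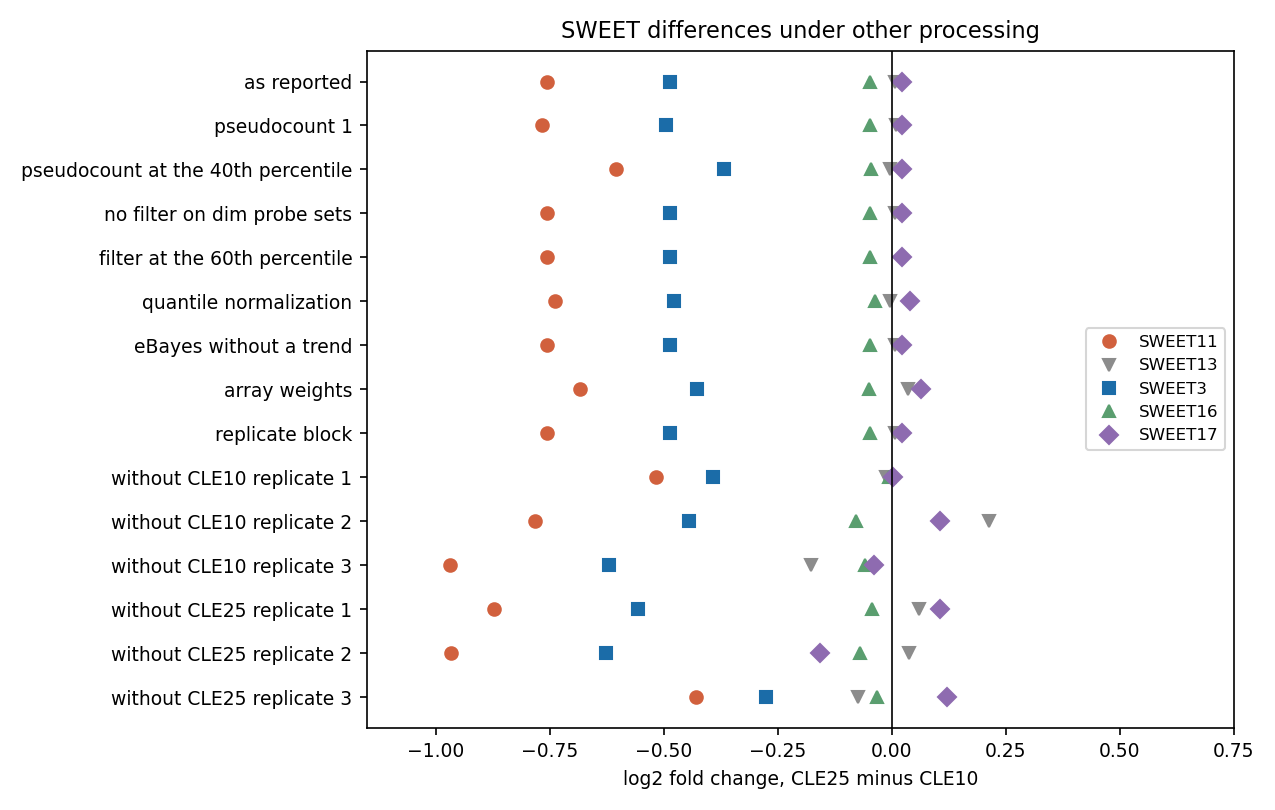
Log2 fold change of CLE25 minus CLE10 (x axis) of the 5 SWEET members as reported and under each alternative (y axis), without error bars. SWEET11 lies between -0.97 and -0.43 and SWEET3 between -0.63 and -0.27, and SWEET13 and SWEET17 fall on both sides of 0.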

How the data were processed

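The authors deposited intensity values on a linear scale, a signal for each probe set, made with GCOS 1.4 per the submitters' processing notes. Its settings, and the detection calls, were not given in the sources used here. A trimmed mean of 500 on each array (2% off each end) shows a global scaling, so the values were used as deposited. Gene names came from the platform's annotation, updated by gene ID to the TAIR10.1 gene table, used for names and gene order only. Of 22746 probe sets that are no control, 13513 named 1 gene, and 8730 were without a name in that annotation.

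CLE25 was compared with CLE10 on log2(signal + 6.03), the 10th percentile of all values, in limma 3.58.1 under R 4.3.3 (lmFit, eBayes with a trend) over 13648 probe sets. Those under the 40th percentile of the mean log2 value (a signal of 92.3) were left out. P-values were adjusted by Benjamini-Hochberg over all probe sets tested. The number of arrays limits the precision. Nothing in the labels ties the arrays to separate cultures, and p-values therefore reflect the spread between arrays only, which may be technical.

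Members, lists, tests and alternatives were chosen with earlier results of these data known. Every SWEET gene with a probe set of its own was named, with the tested list members (up to 6 a list, by signal) and the 3 probe sets most like SWEET11 and SWEET3. List entries counted where the gene table held the symbol at that locus. The fit was tested on simulated data. Alternatives were other pseudocounts, filters, normalization, variance trend, array weights, a replicate block and leaving out each array. No family test was run.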

Additional observations from a re-analysis of the deposited data

How the results depend on the processing

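None of the 5 SWEET members passed an adjusted p of 0.05 in limma under any of the 14 alternatives, leaving out each array included (0 to 0). Over all probe sets the count was 0 in each of them (0 to 0 without an array) except with the replicate block, where it was 1, no SWEET gene. SWEET11 and SWEET3 had lower means with CLE25 under all 14. On leaving out an array SWEET11 ran from -0.97 to -0.43 and SWEET3 from -0.63 to -0.27, both smallest without CLE25 replicate 3, and their unadjusted limma p rose to at most 0.0912 and 0.13. SWEET13 turned to -0.0028 with a pseudocount at the 40th percentile and to -0.0038 with quantile normalization, and ran from -0.18 to 0.21 on leaving out an array. SWEET17 ran from -0.16 to 0.12, turning without CLE10 replicate 3 or CLE25 replicate 2. The number of members lower with CLE25, 3 here, was 3 to 5 on leaving out an array, and their median ran from -0.18 to -0.013. That median was -0.27 with the filter at the 60th percentile, which drops SWEET13. Causes other than that were not tested.

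Deviations of the log2 signals from their group mean correlated at 0.0761, 0.136 and 0.221 between arrays with one replicate number. As no label explains the numbers, the arrays were treated as unpaired. Between the peptides, the deviations of every array correlated highest with those of the array of its own number. This is a hint of pairing from the data only. Deviations within a group sum to 0 by construction, which ties these values together. With the replicate block SWEET11 had -0.76 ± 0.16 (limma unadjusted p = 0.00057, adjusted p = 0.423) and SWEET3 -0.49 ± 0.14 (limma unadjusted p = 0.0046, adjusted p = 0.675). Both were lower with CLE25 in 3 of 3 replicate numbers, and SWEET13, SWEET16 and SWEET17 in 2 of 3. Nothing is read from these counts, because the numbers are unexplained and the family was picked with its differences known. Dim signals limit the 9 SWEET genes under the limit.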

Other observations

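Of the remaining SWEET genes, 2 have a probe set under another symbol and were not chosen by the rule. SAG29, also known as SWEET15 and linked to senescence, had a signal of 51.7 ± 15.7 (SD, n = 3) with CLE10 and 48.4 ± 22.9 with CLE25. AtVEX1, also known as SWEET5 and named for the vegetative cell of pollen, was at 9.18 ± 8.98 and 10.2 ± 8.26. In both the arrays of the peptides overlapped. SWEET12, the close relative of SWEET11, could not be matched by name to a probe set of its own and was not analysed here.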
